A study of Mus musculus with 18 samples.

Results

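The transcription factors Nanog, Esrrb, Tfcp2l1, Klf2, Klf4, Klf5, Tbx3, Nr5a2 and Nr0b1 hold mouse embryonic stem cells (mESCs) in the naïve state of pluripotency. These 9 genes were taken by symbol from the 46078 genes of the count table. Each symbol matched 1 gene, and all 9 passed the filter on low counts and were among the 13438 protein-coding genes tested. The cells were E14 mESCs, a wild-type line of 129 background, so a single line stands for the cell type. They were kept for 24 h in serum with LIF on StemBond hydrogels, polyacrylamide gels that were coated with fibronectin. The co-factor AHA (6-acrylamidohexanoic acid) in such a gel sets how firmly the coating is tethered. Stiffness was near 750 Pa in the soft and near 160 kPa in the stiff gels. Each kind was made with AHA at 16 mM, 48 mM or 80 mM, called low, mid and high here, which gave 6 groups of 3 libraries. The question was how the RNA of each factor changed with stiffness and with tethering.

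Naïve pluripotency is the state of the pre-implantation epiblast, and mESCs in serum with LIF move in and out of it. LIF acts through the receptor chains Lifr and Il6st and the kinase Jak1 on Stat3, which drives Klf4 and Tfcp2l1. The factors bind near one another's genes together with Oct4 (gene Pou5f1) and Sox2, so that any single factor can often be lost without loss of the state. When cells leave it, these factors are silenced, and formative genes such as Otx2, Pou3f1 and Dnmt3b come on.

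Gene counts per library ran from 5850621 to 9290261. ERCC spike-in RNAs took 0.607 to 0.725% of counts in 17 libraries and 1.37% in soft, high AHA replicate 1. The study set aside outliers with many ERCC reads, and the library with the highest share was left out here, so that 8 soft and 9 stiff libraries were compared. Levels are given as CPM, a gene's counts scaled to a common library total over the tested genes with TMM. Fold changes are log2 differences with their standard error (SE) from edgeR's quasi-likelihood test, and a gene was called when its Benjamini-Hochberg adjusted p over all tested genes was under 0.05. The labels do not say whether the 3 libraries of a group came from separate cultures, so p-values measure the spread between libraries, which may be technical. The 7 ESC markers Pou5f1, Sox2, Utf1, Zfp42, Dppa5a, Tdgf1 and L1td1 were present in both, with Pou5f1 at 551 CPM ± 22.4 on soft (SD, n = 8) and 540 CPM ± 30.0 on stiff (SD, n = 9). Their summed level was 3038 to 3182 CPM on soft and 3032 to 3242 CPM on stiff. Averaged over AHA, 3 of the 7 were called higher on soft and 1 lower, Utf1, with a log2 fold change of -0.14 ± 0.031 (adjusted p = 0.00060). Of all tested genes 3.77% were called higher on soft and 4.82% lower.

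The promoters of the factors are described first. Their part in the differences between soft and stiff was not tested. RefSeq promoter entries for GRCm38.p6 matched 7 of the 9 genes with 10 start sites, and none was matched for Klf5 and Tbx3. The 250 bases before each start were searched on both strands for 6 words. The window of Nanog, the homeodomain factor, held the octamer TTTGCAT, followed after 1 base by the SOX word ACAATG, 75 to 62 bases before the start. That pair of words occurred in 2 of 32851 windows of the same length, both of them Nanog windows that overlap. The octamer alone occurred in 4.12% of all windows and ACAATG alone in 10.7%. The word GGGNGNGG, which covers G-rich sites of KLF factors and also any plain run of G, occurred in 8 of the 10 windows (6 of 7 genes) and in 45.9% of all windows. The ESRRB word AAGGTCA (4.08% of all windows) and the STAT word TTCCNGGAA (0.913%) occurred in none of the 10. The TATA box TATAAA occurred in 3 of the 10 windows, those of Tfcp2l1, Nr0b1 and 1 start of Nr5a2, and in 12.4% of all windows. The shares over all windows were taken without regard to their content of G and C. A match is a description of the letters and not of a bound site.

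The windows of the 4 genes whose soft and stiff libraries did not overlap are printed 5′ to 3′ on the gene's strand, with matches to GGGNGNGG, and in Nanog the octamer and SOX word, in capitals. They lie at chr6:122707239-122707488 (Nanog, plus strand, first of 2 starts), chr12:86360867-86361116 (Esrrb, plus strand, first of 2 starts), chr1:118627695-118627944 (Tfcp2l1, plus strand) and chr4:55532476-55532725 (Klf4, minus strand).
Nanog: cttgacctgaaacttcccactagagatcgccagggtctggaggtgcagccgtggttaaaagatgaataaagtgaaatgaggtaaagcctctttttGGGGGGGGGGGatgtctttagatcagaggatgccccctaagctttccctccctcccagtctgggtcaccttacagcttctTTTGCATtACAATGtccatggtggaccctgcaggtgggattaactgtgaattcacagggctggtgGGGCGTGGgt
Esrrb: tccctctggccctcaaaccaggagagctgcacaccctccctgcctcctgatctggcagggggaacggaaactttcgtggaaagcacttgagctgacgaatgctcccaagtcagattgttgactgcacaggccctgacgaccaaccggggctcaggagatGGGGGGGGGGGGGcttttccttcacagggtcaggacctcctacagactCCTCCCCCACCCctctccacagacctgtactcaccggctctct
Tfcp2l1: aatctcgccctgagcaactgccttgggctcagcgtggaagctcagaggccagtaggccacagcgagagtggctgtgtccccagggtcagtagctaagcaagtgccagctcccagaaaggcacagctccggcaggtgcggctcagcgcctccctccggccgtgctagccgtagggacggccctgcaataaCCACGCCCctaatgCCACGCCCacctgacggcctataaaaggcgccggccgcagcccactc
Klf4: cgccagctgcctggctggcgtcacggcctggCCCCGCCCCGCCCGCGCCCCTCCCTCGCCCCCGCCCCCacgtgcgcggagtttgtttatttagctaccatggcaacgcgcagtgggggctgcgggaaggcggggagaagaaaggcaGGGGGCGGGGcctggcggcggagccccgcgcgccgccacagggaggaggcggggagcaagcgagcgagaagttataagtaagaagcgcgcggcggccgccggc
The Tfcp2l1 window held the word at 2 places close to its TATA box, and the Klf4 window held a dense GC-rich block, with 74.0% G or C against a median of 52.4% over all windows.

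Averaged over the 3 AHA concentrations, 8 of the 9 factors were higher on soft substrates, by 1.19 to 1.30-fold, and Klf5 did not differ. Called genes made up 8.59% of all tested genes in this comparison, and genes called higher on soft 3.77%. The 9 factors were chosen with earlier results of these data known, so these shares are no test of the set. The median log2 fold change of the 9 was 0.26, against 0.0011 over all tested genes. In 4 factors (Nanog, Esrrb, Tfcp2l1 and Klf4) every soft library lay above every stiff library, a separation that 0.394% of tested genes showed. Klf2, Tbx3, Nr5a2 and Nr0b1 each had 6 of 8 soft libraries above all 9 stiff libraries. These are bulk libraries, so a smaller share of cells with a factor and less of its RNA per cell cannot be told apart.

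**Figure D1:**
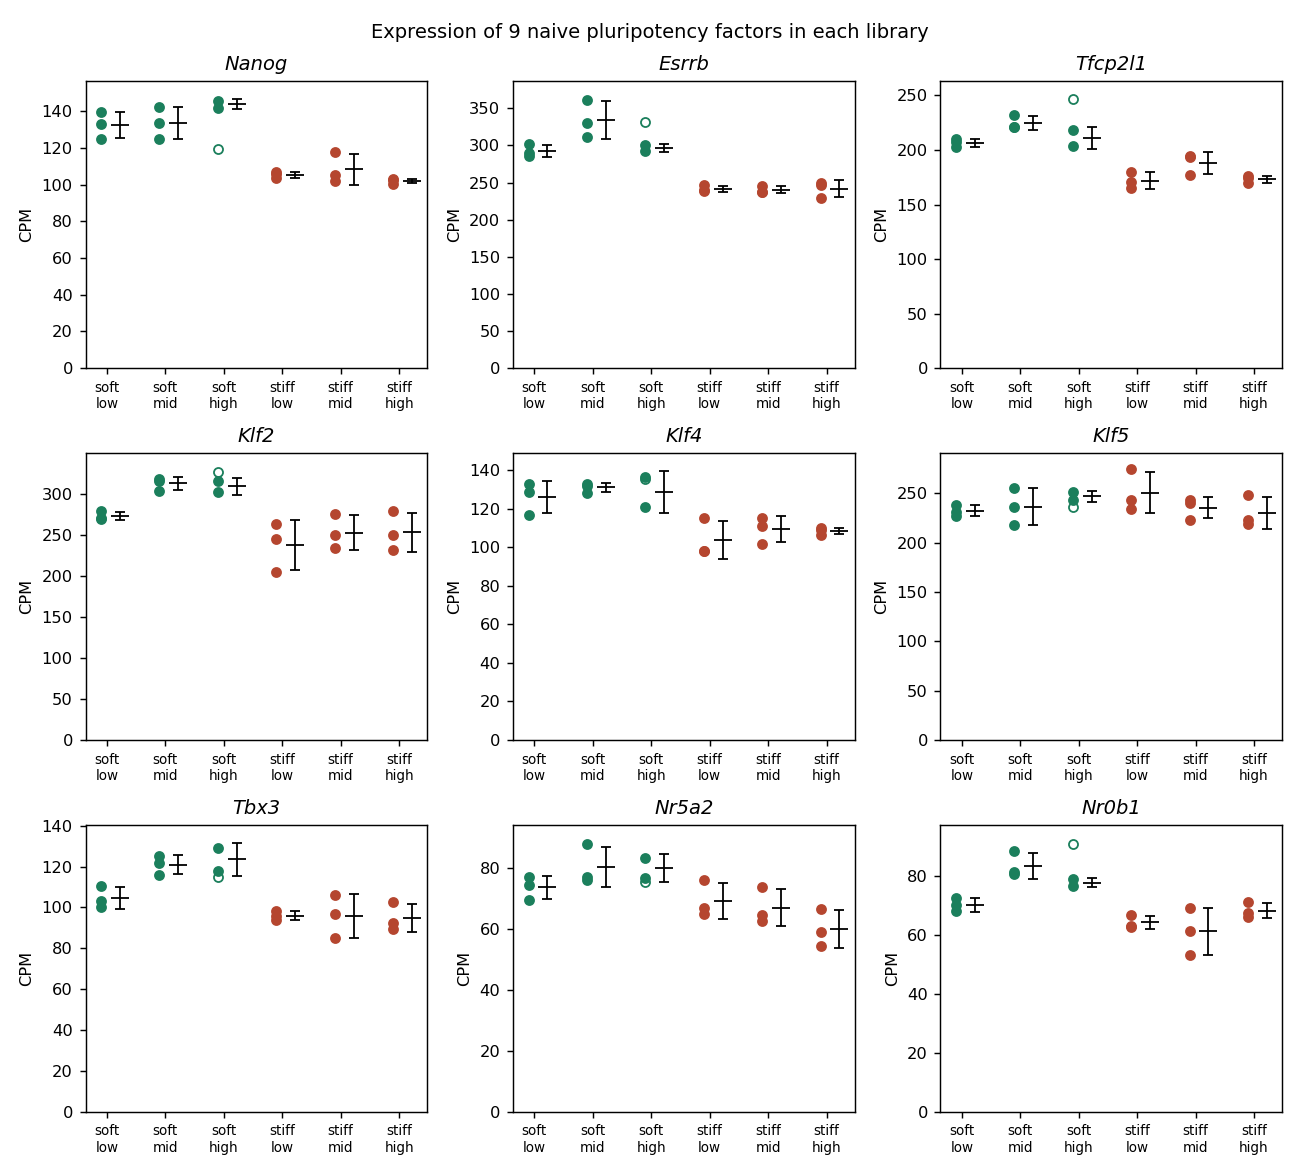
CPM of each factor (vertical axes, from 0) in each library by substrate and AHA concentration. Filled points are the libraries used, the open point is the left-out soft, high AHA library, and the dash with bars is the group mean and SD over the libraries used. Soft libraries of Nanog lie between 125 and 146 CPM and stiff ones between 101 and 118 CPM, while those of Klf5 overlap.

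Nanog (chr6:122707489-122714633, plus strand, GRCm38) measured 140, 133 and 125 CPM on soft gels with low AHA, 143, 134 and 125 CPM with mid AHA, and 146 and 142 CPM with high AHA. On stiff gels it measured 104, 106 and 107 CPM with low AHA, 105, 118 and 102 CPM with mid AHA, and 101, 102 and 103 CPM with high AHA. The soft libraries were all higher, and the stiff library nearest to them was replicate 2 with mid AHA. Nanog rose on soft by a log2 fold change of 0.38 ± 0.040 (SE), which is 1.30-fold (adjusted p = 5.08e-14). This was the largest of the 9 averaged differences. It was called at each concentration, with log2 fold changes of 0.33 ± 0.068 at low, 0.30 ± 0.067 at mid and 0.50 ± 0.074 at high AHA (adjusted p = 0.00038, 0.0015 and 1.49e-06).

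Esrrb (chr12:86361117-86521628, plus strand) encodes an orphan nuclear receptor that can stand in for Nanog. Its soft libraries measured 301, 290 and 285 CPM with low AHA, 330, 362 and 311 CPM with mid AHA, and 301 and 293 CPM with high AHA. Its stiff libraries measured 240, 246 and 239 CPM with low AHA, 238, 246 and 238 CPM with mid AHA, and 249, 229 and 247 CPM with high AHA. The stiff libraries ran from 229 to 249 CPM, and the 3 soft libraries with mid AHA were the highest of all 17. Averaged over AHA, Esrrb rose on soft by a log2 fold change of 0.35 ± 0.029 (adjusted p = 4.37e-20), the lowest p of the 9. The difference was called at low (0.28 ± 0.050, adjusted p = 2.26e-05), mid (0.47 ± 0.049, adjusted p = 4.17e-14) and high AHA (0.29 ± 0.054, adjusted p = 0.00028).

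Tfcp2l1 (chr1:118627945-118685168, plus strand) encodes a CP2-family factor that acts downstream of Stat3. It measured 203, 207 and 210 CPM on soft gels with low AHA, 221, 232 and 221 CPM with mid AHA, and 204 and 218 CPM with high AHA. On stiff gels the values were 180, 165 and 170 CPM, then 177, 195 and 194 CPM, then 176, 174 and 170 CPM in the same order of AHA. The highest stiff library (195 CPM) lay just under the lowest soft one (203 CPM). Averaged, Tfcp2l1 rose on soft by a log2 fold change of 0.27 ± 0.033 (adjusted p = 3.96e-11). Its difference was nearly level over AHA, at 0.26 ± 0.055, 0.25 ± 0.054 and 0.28 ± 0.061 for low, mid and high, each of them called.

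**Figure D2:**
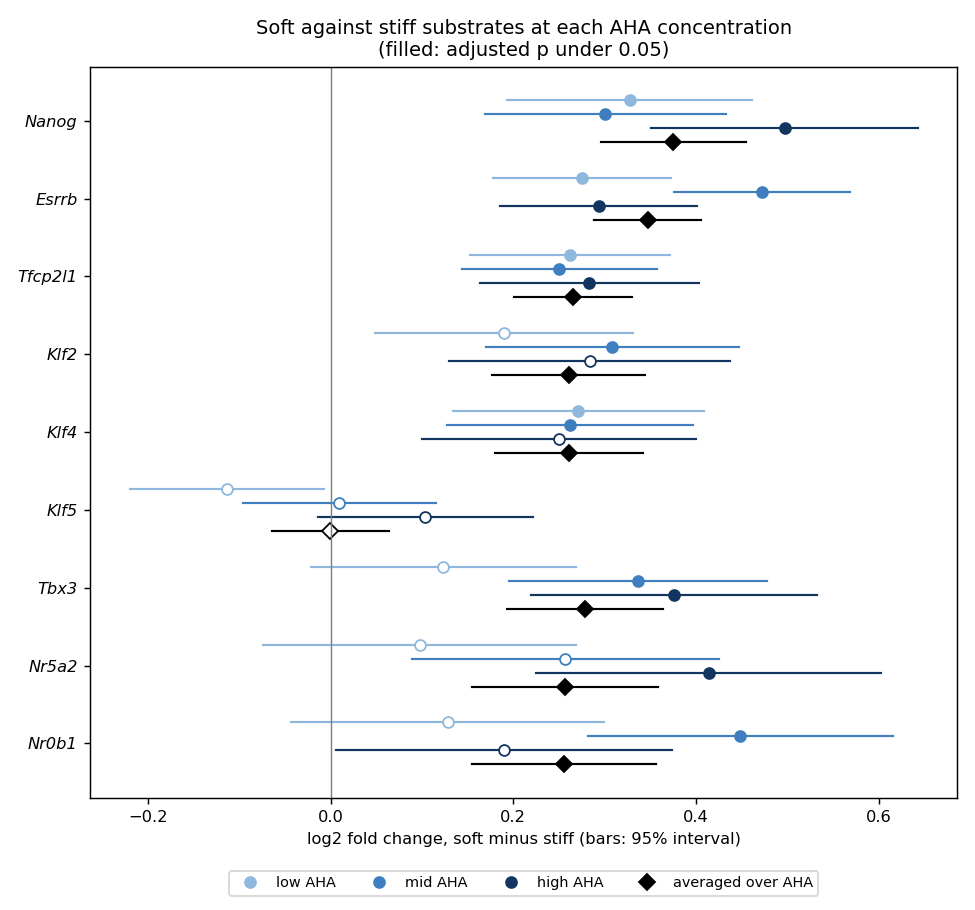
Log2 fold change between soft and stiff substrates (horizontal axis) for each factor at low, mid and high AHA and averaged over them. Bars are 95% intervals and filled symbols had an adjusted p under 0.05. Nanog, Esrrb and Tfcp2l1 are filled throughout, and the Klf5 average sits at 0 with an interval from -0.064 to 0.063.

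The KLF factors are zinc finger proteins that bind GC-rich DNA and can replace each other in part in mESCs. Of the 3 members, Klf4 and Klf2 were higher on soft and Klf5 was not called. Klf4 (chr4:55527143-55532466, minus strand) measured 133, 129 and 117 CPM on soft gels with low AHA, 132, 133 and 128 CPM with mid AHA, and 137 and 121 CPM with high AHA. Its stiff libraries measured 115, 98.1 and 98.3 CPM with low AHA, 115, 111 and 102 CPM with mid AHA, and 107, 109 and 110 CPM with high AHA. The ranges met without overlap, at 117 CPM on soft and 115 CPM on stiff. Klf4 rose on soft by an averaged log2 fold change of 0.26 ± 0.041 (adjusted p = 2.41e-07). It was called at low (0.27 ± 0.069, adjusted p = 0.0080) and mid AHA (0.26 ± 0.068, adjusted p = 0.011), and was 0.25 ± 0.076 at high AHA (adjusted p = 0.094).

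Klf2 (chr8:72319033-72321656, plus strand) measured 278, 269 and 270 CPM on soft gels with low AHA, 315, 318 and 304 CPM with mid AHA, and 316 and 301 CPM with high AHA. On stiff gels it measured 263, 205 and 245 CPM with low AHA, 275, 249 and 233 CPM with mid AHA, and 249, 231 and 278 CPM with high AHA. Of the soft libraries with low AHA 2 fell among the highest stiff ones and 1 was level with the highest of them, and those with mid or high AHA lay above all stiff libraries. Klf2 rose on soft by an averaged log2 fold change of 0.26 ± 0.041 (adjusted p = 4.31e-05). By concentration it was 0.19 ± 0.069 at low (adjusted p = 0.17), 0.31 ± 0.068 at mid (adjusted p = 0.0076) and 0.28 ± 0.075 at high AHA (adjusted p = 0.073).

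Klf5 (chr14:99298691-99315036, plus strand) measured 239, 227 and 231 CPM on soft gels with low AHA, 255, 236 and 218 CPM with mid AHA, and 251 and 243 CPM with high AHA. Stiff libraries gave 274, 234 and 244 CPM with low AHA, 243, 223 and 240 CPM with mid AHA, and 219, 223 and 249 CPM with high AHA. No soft library lay above all stiff ones, and the highest library of all was a stiff one with low AHA. The averaged log2 fold change was -0.00017 ± 0.032 (adjusted p = 0.998), with a 95% interval from -0.064 to 0.063, and its sign turned positive in 13 of 25 alternative analyses. By concentration it was -0.11 ± 0.054 at low, 0.0096 ± 0.053 at mid and 0.10 ± 0.059 at high AHA (adjusted p = 0.33, 0.96 and 0.57). Single libraries moved these values, to -0.040 at low AHA without stiff replicate 1, to between -0.045 and 0.065 at mid AHA, and to 0.064 at high AHA without stiff replicate 1. Over all 26 alternatives they ran from -0.16 to -0.040 at low, -0.045 to 0.11 at mid and 0.058 to 0.21 at high AHA. Klf5 had at least 926 raw counts in each library.

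Since the 3 genes were read from the same libraries, their raw counts can be set against each other with no scaling. For each read of Klf5 there were 0.542 ± 0.0327 reads of Klf4 on soft (SD, n = 8) and 0.451 ± 0.0361 on stiff (SD, n = 9), with 7 of 8 soft libraries above all stiff ones. For Klf2 the ratios were 1.25 ± 0.0826 on soft and 1.04 ± 0.0940 on stiff, with 8 of 8 soft libraries above all stiff ones. The ratio of Nanog to Klf5 was 0.572 ± 0.0160 on soft and 0.443 ± 0.0409 on stiff, and the ratio of Esrrb to Klf5 was 1.30 ± 0.116 and 1.02 ± 0.0773, both without overlap. The ratios of the other 4 overlapped between soft and stiff, with 7 of 8 soft libraries above all stiff ones for Nr0b1, 6 for Tbx3, 5 for Tfcp2l1 and 4 for Nr5a2. Klf5 was picked as the denominator after its values were seen, so no test is attached to these ratios. They show unequal change, and not that Klf5 stood still.

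Tbx3, Nr5a2 and Nr0b1 had small differences at low AHA, and none of the 3 was called there. Tbx3 (chr5:119670669-119684724, plus strand), a T-box factor that supports self-renewal, measured 103, 111 and 100 CPM on soft gels with low AHA, 125, 122 and 116 CPM with mid AHA, and 118 and 129 CPM with high AHA. Its stiff libraries measured 94.0, 95.6 and 98.3 CPM with low AHA, 106, 96.7 and 84.8 CPM with mid AHA, and 92.2, 89.4 and 103 CPM with high AHA. The libraries of the soft groups with mid and high AHA lay above every stiff library, and at low AHA 1 soft library did. Its averaged log2 fold change was 0.28 ± 0.043 (adjusted p = 1.52e-07). It was 0.12 ± 0.073 at low (adjusted p = 0.51), 0.34 ± 0.072 at mid (adjusted p = 0.00074) and 0.38 ± 0.079 at high AHA (adjusted p = 0.0020).

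Nr5a2 (chr1:136842571-136960448, minus strand) encodes a nuclear receptor that acts on Pou5f1 and can replace Oct4 in reprogramming. Soft libraries measured 74.4, 69.8 and 77.1 CPM with low AHA, 76.3, 88.2 and 77.1 CPM with mid AHA, and 77.0 and 83.5 CPM with high AHA. Stiff libraries measured 65.1, 76.1 and 66.9 CPM with low AHA, 64.6, 73.9 and 62.8 CPM with mid AHA, and 54.5, 59.3 and 66.8 CPM with high AHA. The groups overlapped at low AHA and were apart at mid and high AHA. Averaged over AHA, the log2 fold change of Nr5a2 was 0.26 ± 0.052 (adjusted p = 9.14e-05). It was 0.097 ± 0.087 at low (adjusted p = 0.71), 0.26 ± 0.085 at mid (adjusted p = 0.081) and 0.41 ± 0.096 at high AHA (adjusted p = 0.0076).

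Nr0b1 (chrX:86191764-86195947, plus strand) encodes Dax1, an unusual nuclear receptor that binds Oct4 and Nr5a2 and curbs their activity. It measured 68.0, 72.6 and 70.1 CPM on soft gels with low AHA, 80.8, 88.6 and 81.2 CPM with mid AHA, and 78.9 and 76.6 CPM with high AHA. On stiff gels it measured 62.9, 62.8 and 66.9 CPM with low AHA, 69.1, 61.5 and 53.2 CPM with mid AHA, and 66.2, 67.4 and 71.1 CPM with high AHA. Soft lay above stiff within each concentration, but 2 of the soft libraries with low AHA fell under the highest stiff library. The averaged log2 fold change was 0.26 ± 0.051 (adjusted p = 7.57e-05). It was 0.13 ± 0.087 at low (adjusted p = 0.58), 0.45 ± 0.085 at mid (adjusted p = 8.79e-05) and 0.19 ± 0.093 at high AHA (adjusted p = 0.46).

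At low AHA 4 of the 9 factors were called higher on soft (Nanog, Esrrb, Tfcp2l1 and Klf4), where 3.04% of all tested genes were called and 0.848% called higher. Leaving out soft replicate 1, stiff replicate 2 or stiff replicate 3 of low AHA ended the call of Klf4 (adjusted p = 0.12, 0.075 and 0.11), and leaving out stiff replicate 1 added Klf2 (0.27, adjusted p = 0.0034). Leaving out stiff replicate 2 brought Klf2 down to 0.10 (adjusted p = 0.46), and Nr5a2 moved to 0.054 without stiff replicate 1 and to 0.16 without stiff replicate 2. Klf2 was also called at low AHA in a fit of the 2 groups alone (adjusted p = 0.0062) and with a minimum of 2 counts (adjusted p = 0.0081). With ERCC scaling none of the 4 was called at low AHA (adjusted p from 0.080 to 0.24, log2 fold changes from 0.25 to 0.31).

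At mid AHA 7 were called, all higher on soft, with Klf5 and Nr5a2 the exceptions, against 2.86% of all tested genes called and 1.01% called higher. Leaving out soft replicate 2 of mid AHA ended the calls of Klf2 and Klf4 (adjusted p = 0.063 and 0.061). Leaving out stiff replicate 3 ended those of Klf4 and Tbx3 (adjusted p = 0.14 and 0.053), and leaving out stiff replicate 2 added Nr5a2 (adjusted p = 0.032).

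At high AHA 5 were called higher on soft (Nanog, Esrrb, Tfcp2l1, Tbx3 and Nr5a2), and 0.841% of all tested genes were called, with 0.409% called higher. This comparison has 2 soft libraries. Leaving out soft replicate 3 left 1, assumed to vary like the other groups, and ended the calls of Tfcp2l1, Tbx3 and Nr5a2 (adjusted p = 0.18, 0.17 and 0.20). Leaving out soft replicate 2 brought Klf4 down to 0.15 (adjusted p = 0.69), and leaving out stiff replicate 1 ended the call of Nr5a2 (adjusted p = 0.12). With all 18 libraries 7 factors were called, Klf2 and Klf4 among them (adjusted p = 0.0034 and 0.0094), and with soft replicate 3 left out in place of replicate 1 there were 8. Over all genes these 2 fits called more too, 341 and 257 against 113 in the form reported. Klf2 was also called without stiff replicate 1 or 2 of low AHA, 1 or 3 of mid AHA, or 3 of high AHA, with adjusted p from 0.00073 to 0.018. It was called too with ERCC scaling (adjusted p = 0.013), with a minimum of 2 counts (adjusted p = 0.00019) and in a fit of the 2 groups alone (adjusted p = 0.0028).

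Scaled to exon length, so that genes can be compared, Klf2 had the highest level of the 9, with 147 CPM per kb ± 17.9 (SD, n = 17). Nanog (53.4 CPM per kb ± 7.56), Klf5 (45.8 ± 2.80), Esrrb (45.2 ± 6.45), Nr0b1 (39.0 ± 4.80) and Klf4 (38.5 ± 4.17) formed a middle range whose neighbours overlapped. That order holds for the pool of soft and stiff libraries. In each soft group Esrrb had the higher mean of the pair Esrrb and Klf5 (48.4 to 55.2 against 44.7 to 47.5 CPM per kb), and in each stiff group the lower (39.8 to 40.0 against 44.2 to 48.2 CPM per kb). Tfcp2l1 (20.7 CPM per kb ± 2.25), Tbx3 (15.8 ± 1.98) and Nr5a2 (12.1 ± 1.48) had the lowest length-scaled levels. Exon length was the union of all annotated exons (9438 bases for Tfcp2l1), so exons that are seldom used would place a gene low. The use of single exons was not measured.

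**Figure D3:**
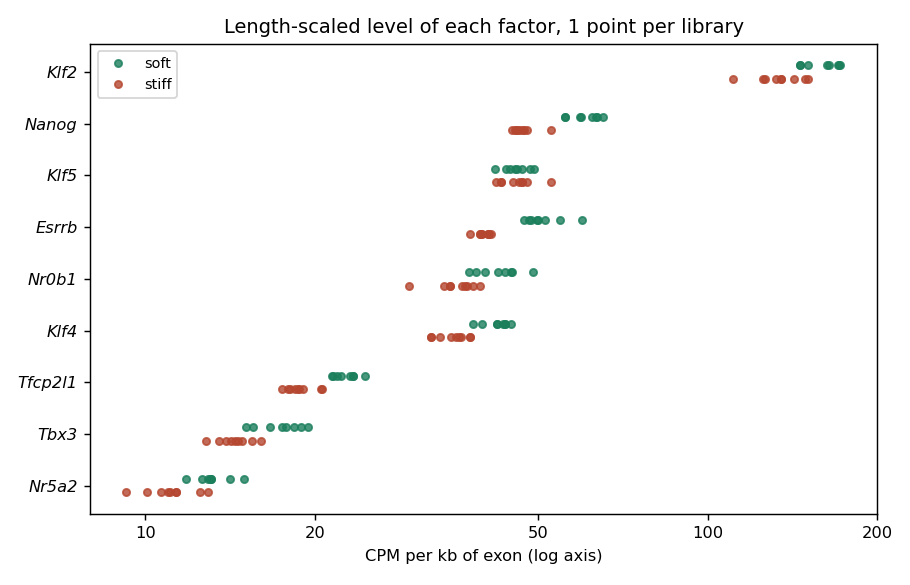
CPM per kb of exon (log axis) for each factor in the 8 soft and 9 stiff libraries, 1 point a library, ordered by the mean. Klf2 stands above the others at 147 CPM per kb on average, and the soft and stiff points of Klf5 lie on top of each other.

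Between AHA concentrations no factor was called on either stiffness by edgeR's quasi-likelihood test. The share of all tested genes called was 0.253% for high against low AHA on soft, 0% for mid against low on soft, 0.067% for high against mid on soft, 0.00744% for high against low on stiff, 0% for mid against low on stiff, 0.00744% for high against mid on stiff, and 0.112% for high against low averaged over stiffness. In the same order the factors with an unadjusted p under 0.05 numbered 2, 5, 1, 2, 1, 1 and 2 of 9, where 8.51%, 6.10%, 6.81%, 6.04%, 4.99%, 5.83% and 8.64% of all tested genes had one, and DESeq2 called none of them in any of the 7. The counts behind these shares hang on single libraries. On soft, high against low AHA went from 34 genes to 2 without soft replicate 2 of high AHA and to 69 without replicate 3. High against mid on soft went from 9 to 4 without soft replicate 2 of high AHA, and mid against low on soft from 0 to 7 without soft replicate 3 of mid AHA. On stiff, high against low went from 1 to 15 and high against mid from 1 to 5 without stiff replicate 1 of high AHA. Averaged over stiffness, high against low went from 15 to 5 and 65 without soft replicates 2 and 3 of high AHA, and was 46 with DESeq2. These comparisons share libraries, so the values below are set side by side and not counted as separate evidence.

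On soft gels all 9 factors had a positive difference both from low to mid and from low to high AHA, with medians of 0.12 in each, while over all tested genes the medians were -0.0018 and -0.00070. From low to mid AHA Esrrb had a log2 difference of 0.19 ± 0.048 (adjusted p = 0.24), Nr0b1 0.25 ± 0.082 (0.52), Tbx3 0.21 ± 0.070 (0.52), Klf2 0.20 ± 0.067 (0.59) and Tfcp2l1 0.12 ± 0.053 (0.77). From low to high AHA the largest were Tbx3, 0.24 ± 0.079 (adjusted p = 0.23), and Klf2, 0.18 ± 0.075 (adjusted p = 0.48). Esrrb, highest at mid AHA, had a difference of -0.17 ± 0.053 from mid to high (adjusted p = 0.38), and -0.11 without soft replicate 2 of mid AHA. The count of positive differences ran from 7 to 9 of 9 in both when single libraries were left out, the fewest without soft replicate 1 of mid AHA (low to mid) and without soft replicate 2 of high AHA (low to high). Leaving out soft replicate 3 of mid AHA brought Esrrb from low to mid past the threshold (0.24, adjusted p = 0.039).

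On stiff gels the differences ran in both directions, with 4 of 9 positive from low to mid and 5 of 9 positive from low to high AHA. With single libraries left out these counts ran from 3 to 8 (8 without stiff replicate 3 of mid AHA) and from 3 to 6. Nr5a2 had the most negative, -0.20 ± 0.089 from low to high (adjusted p = 0.77), with group means of 69.4, 67.1 and 60.2 CPM. Without stiff replicate 1 of high AHA the Nr5a2 difference was -0.12, and without replicate 3 it was -0.29. Klf5 had -0.13 ± 0.054 (adjusted p = 0.72), and -0.056 without stiff replicate 1 of low AHA. The 95% intervals of the 9 stiff differences between high and low AHA spanned -0.37 to 0.26.

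**Figure D4:**
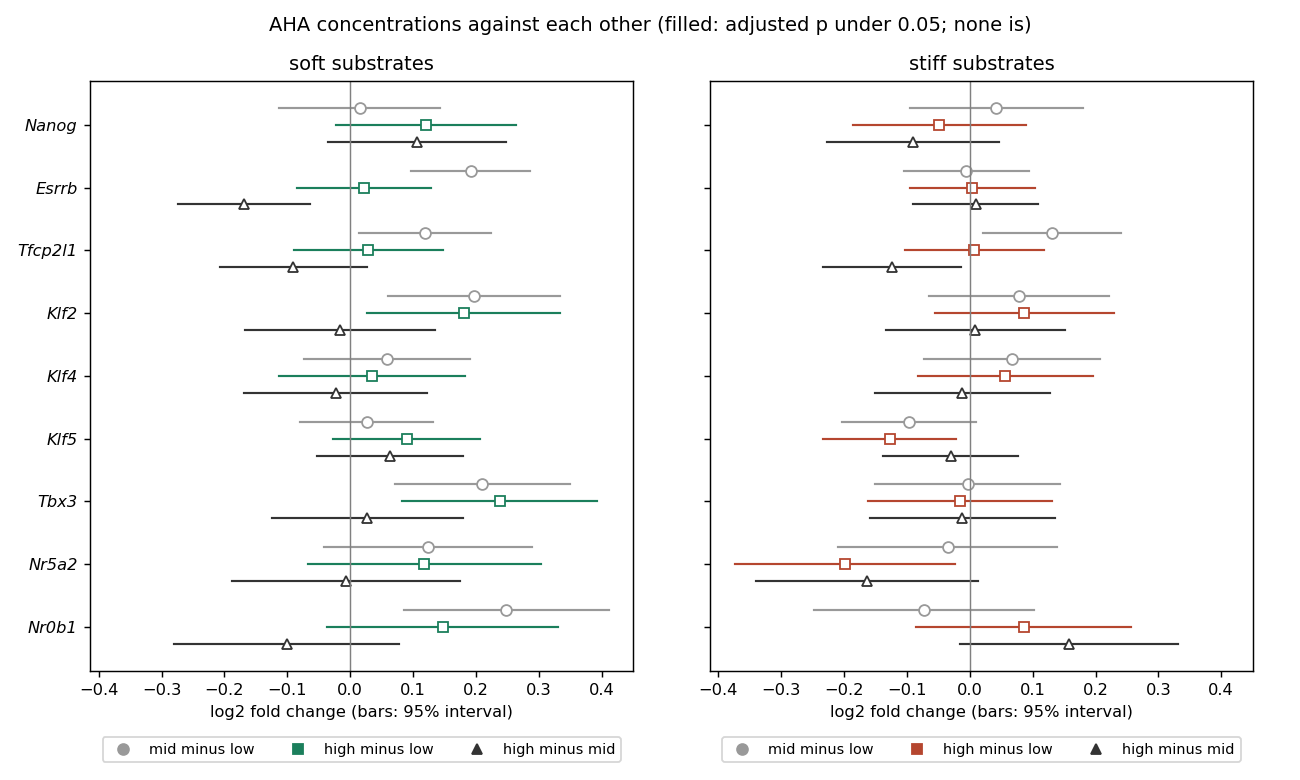
Log2 fold changes between AHA concentrations (horizontal axes) on soft (left) and stiff (right) substrates for each factor, with 95% intervals. On soft the points for mid minus low and high minus low all lie above 0, on stiff they fall on both sides, and no point had an adjusted p under 0.05.

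Whether the soft to stiff difference itself varied with AHA was tested on 2 degrees of freedom, and 0.0298% of all tested genes were called. None of the factors was (0 of 9 by edgeR and by DESeq2, 4 of 9 at an unadjusted p under 0.05, where 6.71% of all tested genes had one), so the concentration-specific calls above are not shown to differ. The 4 factors were Esrrb (adjusted p = 0.60), Nr0b1 (adjusted p = 0.71), Klf5 (adjusted p = 0.72) and Tbx3 (adjusted p = 0.73). Over all tested genes the interaction called 4, and 12 without stiff replicate 2 of low AHA. Averaged over stiffness, high minus low AHA was largest for Klf2, at 0.13 ± 0.051 (adjusted p = 0.43), followed by Nr0b1 (0.12 ± 0.064, adjusted p = 0.64) and Tbx3 (0.11 ± 0.054, adjusted p = 0.56).

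The order of the 6 groups followed from these values. In 8 factors the 3 soft groups ranked above the 3 stiff groups, while Klf5 ran from stiff, low AHA (251 CPM ± 20.8) to stiff, high AHA (230 CPM ± 16.3), with each neighbour in that order overlapping. Nanog was highest in soft, high AHA (144 CPM ± 2.80, SD, n = 2) and Tbx3 there too (124 CPM ± 8.02), in both cases overlapping with soft, mid AHA. The other 6 were highest in soft, mid AHA, and in Esrrb (334 CPM ± 25.8), Tfcp2l1 (225 CPM ± 6.31) and Nr0b1 (83.5 CPM ± 4.38) that group did not overlap with the next. The next was soft, high AHA (n = 2), and these gaps rest on the library left out of it. That library measured 332 CPM for Esrrb, inside the soft, mid AHA range (311 to 362 CPM). At 247 CPM for Tfcp2l1, 90.9 CPM for Nr0b1 and 327 CPM for Klf2 it lay above each soft, mid AHA library. Between the lowest soft and the highest stiff group the libraries did not overlap in Nanog, Esrrb, Tfcp2l1, Klf4 and Tbx3.

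Across the 17 libraries, the 28 pairs among the 8 factors other than Klf5 had Pearson r of log2 CPM from 0.55 to 0.89, with a median of 0.78. The 8 pairs with Klf5 ranged from -0.070 to 0.26. The points share the 6 groups and the scaling of each library, and the values are a description. By the same measure over all tested genes, the nearest genes to Nanog were Igf2bp2 (r = 0.95), Baz2a and Fgf4, those to Esrrb were Kdm5b (r = 0.94), Alg13 and Baz2a, and those to Tfcp2l1 were Kdm5b (r = 0.91), Esrrb and Usp28. Klf2 was nearest to Tdh (r = 0.91), Tbc1d10b and Ankle2, and Klf4 to Mybl2 (r = 0.90), Tdh and Lima1. Tbx3 was nearest to Notch4 (r = 0.91), Nckipsd and Apoe, Nr0b1 to Tbx3 (r = 0.89), Apoe and AU015836, and Nr5a2 to Ticrr (r = 0.83), Calcoco2 and Cnot3. Klf5 had the weakest nearest genes, Elmod3 (r = 0.77), Ess2 and Cript.

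Of the core factors Pou5f1, Sox2 and Sall4, 2 were called higher on soft, where 3.77% of all tested genes were. Sox2, the partner of Oct4, had a log2 fold change of 0.19 ± 0.029 (338 CPM ± 16.1 against 294 CPM ± 19.1, adjusted p = 9.40e-08), and Sall4, a zinc finger factor of the core, 0.090 ± 0.022 (adjusted p = 0.0024). Pou5f1 was not called, at 0.033 ± 0.025 (adjusted p = 0.51). Of 10 other naïve genes 8 were higher and none lower, with a median of 0.20, and the lowest adjusted p belonged to Jam2 (0.34 ± 0.047, adjusted p = 3.43e-09), an adhesion molecule, and Tet2 (0.23 ± 0.035, adjusted p = 9.90e-08), which oxidises methylcytosine.

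The list of the LIF and STAT3 pathway holds genes upstream of the factors and also targets of Stat3. Of its 7 genes 1 was higher on soft, Lifr (0.17 ± 0.040, adjusted p = 0.0011), and 1 was lower, the kinase and Stat3 target Pim1 (-0.23 ± 0.043, adjusted p = 1.56e-05). Over all tested genes 3.77% were called higher and 4.82% lower. Stat3 (0.044 ± 0.039, adjusted p = 0.60) and its feedback target Socs3 (-0.042 ± 0.048, adjusted p = 0.69) were not called. Of 8 genes that act in the exit from the naïve state, for it or against it, 2 were higher, Tcf7l1 (0.13 ± 0.029, adjusted p = 0.00046), a repressor of naïve genes, and Flcn (0.17 ± 0.054, adjusted p = 0.035), which keeps Tfe3 out of the nucleus. Both are known to act against the naïve state.

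Of 6 formative genes 3 were lower on soft and none higher, with a median of -0.13, where 4.82% of all tested genes were called lower on soft. Pou3f1, a POU factor of the formative epiblast, had a log2 fold change of -0.30 ± 0.053 (adjusted p = 7.85e-06). The methyltransferase Dnmt3b had -0.13 ± 0.023 (adjusted p = 7.34e-06) and the Wnt effector Lef1 -0.30 ± 0.087 (adjusted p = 0.012). The remaining members did not pass the test, with 0.27 ± 0.21 for Fgf5 (adjusted p = 0.51), -0.071 ± 0.056 for Sox4 (adjusted p = 0.52) and -0.14 ± 0.099 for Otx2 (adjusted p = 0.47). Fgf5 had few counts, at 4.34 CPM on soft and 3.63 CPM on stiff, and Otx2 was at 16.9 and 18.8 CPM.

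Relatives of the factors were measured too. Of 14 other KLF genes 12 were tested and 3 were higher on soft, where 3.77% of all tested genes were called higher. The median over the 12 was -0.032. The lowest adjusted p belonged to Klf8 (0.27 ± 0.072, adjusted p = 0.0063) and Klf15 (0.38 ± 0.10, adjusted p = 0.0083), at 36.4 and 18.0 CPM on soft. Of 8 closest relatives of the other members, which include Esrra, Nr5a1, Tfcp2 and Tbx2, 6 were tested and 0 were called by edgeR's test. Their median was -0.020 and the widest difference was that of Esrra (-0.23 ± 0.12, adjusted p = 0.27).

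**Figure D5:**
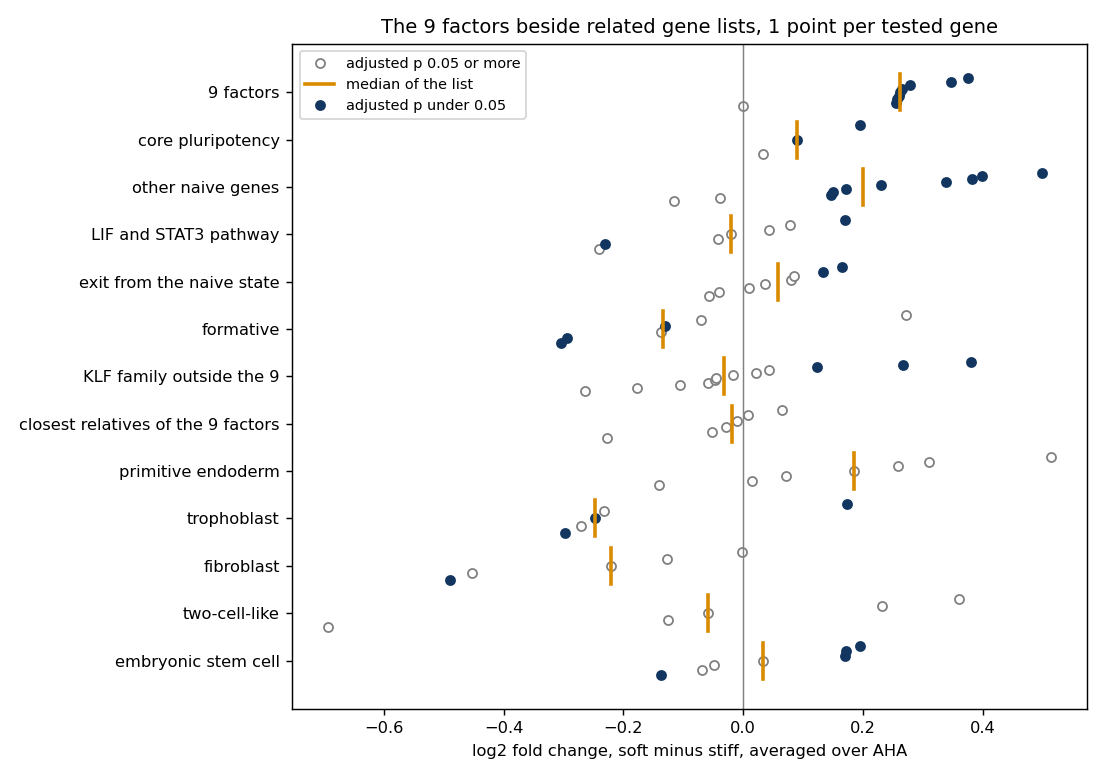
Log2 fold change between soft and stiff, averaged over AHA (horizontal axis), for each tested gene of the 9 factors and of 12 related lists, with filled points for an adjusted p under 0.05 and a bar at each list's median. The 9 factors have a median of 0.26, the other naïve genes 0.20 and the formative genes -0.13.

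Markers of other cell types were measured in the same libraries and averaged over AHA, where 3.77% of all tested genes were called higher on soft and 4.82% lower. None of 7 primitive endoderm markers was called, and their summed level was 36.8 to 51.2 CPM on soft and 37.3 to 49.3 CPM on stiff. Of 6 trophoblast markers 5 were tested, with 1 higher on soft (Tfap2c) and 2 lower (Hand1 and Krt7), and sums of 195 to 228 CPM on soft and 200 to 227 CPM on stiff. Of 7 fibroblast markers 5 were tested and 1 was lower on soft, Col1a1 (109 CPM ± 24.6 against 155 CPM ± 20.1, adjusted p = 0.0028), with sums of 119 to 198 CPM on soft and 170 to 243 CPM on stiff. The Col1a1 difference was -0.76 ± 0.14 at low, -0.70 ± 0.14 at mid and -0.0089 ± 0.15 at high AHA. By concentration Hand1 (-0.61 ± 0.12) and Krt7 (-0.49 ± 0.11) were called at low AHA only. Of 6 markers of two-cell-like cells 5 were tested and none was called (15.3 to 25.0 CPM on soft and 16.7 to 28.0 CPM on stiff). No marker of these lists was at 0 in all libraries. The part of these markers in the differences of the 9 factors was not tested.

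Reads of the factors were little shared with other annotated genes. Exons of Tbx3 overlapped those of the antisense gene Tbx3os1 over 1.74% of their length, and that gene had 41 counts over the 18 libraries. Exons of Tfcp2l1 overlapped the small nuclear RNA gene Gm23497 over 1.38%, at 0 counts. A search of the transcripts of the 9 genes against all other GENCODE M21 transcripts, at 90% identity over 300 bases, found 1 match, the processed pseudogene Gm6007 of Klf5, for which no count was matched here. Whether reads of Klf5 fell on it was not tested.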

How the data were processed

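RNA of E14 mESCs on 6 substrates was sequenced in 18 libraries. Per the paper's methods and the submitters' processing notes, the authors used Trim Galore 0.4.4 for trimming, GSNAP for alignment to mm10 and HTSeq for counting over Ensembl genes. What they deposited are raw counts. The strand setting of the counting was not given in the sources used here, and antisense overlap is therefore stated. Summary lines held 61.5 to 64.0% of each column and were left out.

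GENCODE M21 named 45143 of 46078 genes. After filterByExpr (minimum count 10) on protein-coding genes and TMM scaling, edgeR 4.0.16 (R 4.3.3) was used for a robust quasi-likelihood model with 1 coefficient a group, 17 libraries and 13438 genes. The biological coefficient of variation was 5.35%. Benjamini-Hochberg adjustment was made over all tested genes of a comparison. The script was tested on simulated data. Replicates were numbered in sample order, and replicate pairs differed by more than counting noise (chi-square per degree of freedom 1.81 to 2.99). Alternatives were RLE and ERCC scaling, DESeq2 1.42.0, a minimum of 2 counts, all biotypes, all 18 libraries, the 2 groups compared alone, each library left out, and CPM over all gene counts. Soft, high AHA library 2 or 3 left out in place of 1 was added after seeing the data.

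The 9 members and the gene lists were chosen with earlier results of these data known. Of other lists the 2 lowest adjusted p in each direction were named, plus all core and formative genes, and of the genes most like a member the 3 highest r (log2 CPM, prior count 2). Genes named beyond that rule were chosen after their values were seen.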

Additional observations from a re-analysis of the deposited data

Results flagged for a closer look

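In the gap check of the 8 soft and 9 stiff libraries of each factor (18 sets), 1 library stood apart. Nanog in stiff, mid AHA replicate 2 measured 118 CPM, with a gap of 0.625 of the stiff range to the next library, above the critical value of 0.493 for 9 samples. Chance flags about 1 in 20 such sets, and the stiff libraries mix 3 AHA concentrations. Without that library the averaged Nanog difference was 0.40 (log2) and that at mid AHA 0.38, and both were called.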

How the results depend on the processing

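The 8 factors called in the averaged comparison were called in all 25 alternatives, and leaving out single libraries kept their number at 8. Klf5, which was not called in any, had positive averages of 0.0016 with RLE scaling, 0.067 with ERCC scaling, 0.0017 with DESeq2 and 0.0046 with a minimum of 2 counts, and ranged from -0.016 to 0.025 when single libraries were left out. ERCC scaling moved the median of all genes by 0.065 in the averaged comparison, 0.10 at mid and 0.11 at high AHA, and by 0.12 and 0.11 in high and mid against low AHA on soft, so that the Klf5 value of 0.067 is close to the shift. It called 736 of 929 genes higher on soft, against 506 of 1154 with TMM. It called 0 members at low AHA (4 with TMM). With single libraries left out, members called ranged from 0 to 1 for mid against low AHA on soft and from 2 to 6 at high AHA. Soft, high AHA library 3 left out in place of 1 gave 8 at high AHA. Over all genes, high AHA gave 341 calls with all 18 libraries, 384 and 257 with library 2 or 3 left out in place of 1, 56 with ERCC scaling and 113 in the form reported. ERCC scaling gave 162 at low and 169 at mid AHA, against 408 and 384. Of these, 13 at low and 136 at mid AHA were higher on soft, against 114 and 136 with TMM. Leaving out soft replicate 1 at low AHA gave 245, soft replicate 2 at mid AHA 222 and soft replicate 3 at high AHA 42. The interaction gave 12 genes with library 2 left out in place of 1 (4 as reported). The cause was not tested. CPM over all gene counts, which include non-coding genes in the divisor, moved each of 54 group means. No paired analysis was possible because the labels give no replicate number shared between groups. With 2 or 3 libraries a group and counts from 246 a library, 95% intervals for differences between AHA concentrations reached 0.094 to 0.19 (log2) to either side, with a median of 0.14.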

Other observations

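The left-out library, soft with high AHA, replicate 1, measured 119 CPM for Nanog, below each soft library used (125 to 146 CPM) and just above the highest stiff one (118 CPM). Its values for Tfcp2l1 (247 CPM), Klf2 (327 CPM) and Nr0b1 (90.9 CPM) were above every library used. For Esrrb (332 CPM), Klf4 (135 CPM), Klf5 (236 CPM), Tbx3 (115 CPM) and Nr5a2 (75.6 CPM) it lay within the range of the soft libraries.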
